A study of Homo sapiens with 6 samples.

Results

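The proteins that package nascent transcripts and choose splice sites were followed here at the level of their messages: 42 genes of the heterogeneous nuclear ribonucleoprotein (hnRNP) families, the serine/arginine-rich (SR) proteins and closely related regulators, taken by name from the 67140 rows of a gene count table. They are 23 hnRNP and polypyrimidine tract-binding protein genes, 13 SR and TRA2 genes, and 6 genes of the ESRP, RBFOX and CLK groups, and each name matched a single row. RNA-seq had been done on CAPAN-2, an established line of human pancreatic ductal adenocarcinoma, in 3 libraries labelled as SIRT4 overexpression and 3 labelled as control without it. SIRT4 is a mitochondrial sirtuin that acts on enzymes of amino acid and pyruvate metabolism. The series asks which genes differ between these groups. The sources used here give neither the vector, nor the length of the overexpression, nor the culture conditions. Whether replicates were separate cultures is not labelled, and the p-values therefore reflect spread among these libraries that may be technical.

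Splicing removes introns in the nucleus, and the choice between alternative exons depends on proteins that bind the unspliced transcript. SR proteins mostly bind exonic enhancer sequences and recruit the spliceosome, whereas hnRNP proteins coat the transcript and many of them repress nearby splice sites. The CLK kinases phosphorylate SR proteins, and ESRP1 and ESRP2 keep the exon choices typical of epithelial cells. In pancreatic carcinoma, as in other epithelial tumours, several of these factors are studied because they set the isoforms of growth factor receptors, adhesion molecules and metabolic enzymes.

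The SIRT4 gene itself stood at 3.31, 2.80 and 3.60 CPM in the SIRT4 libraries, against 2.47, 1.96 and 1.83 CPM in the control libraries. CPM is the deposited estimated count scaled to the size of the library. The groups did not overlap, but the log2 fold change of 0.63 (SE 0.21) missed the threshold of 0.05 used throughout (edgeR quasi-likelihood F-test, Benjamini-Hochberg adjusted p = 0.0752). Whether RNA made from an introduced SIRT4 sequence would be counted in this row is not known here, so these values do not measure how far SIRT4 was overexpressed. Library totals ran from 50945991 to 65156041 units. The scarcest of the 42 genes in any library, PTBP2, had 277 units there, and no other fell under 798. Markers of the labelled cell type were read as a description, and they do not establish its identity. KRT8 averaged 2062 CPM in SIRT4 libraries and 862.5 CPM in control libraries, KRT18 789 and 393 CPM, and KRT19 1254 and 683 CPM. These 3 keratins were higher in SIRT4 libraries. EPCAM (37.7 and 43.1 CPM), CDH1 (117 and 107 CPM), MUC1 (15.5 and 12.1 CPM) and KRT7 (8.91 and 7.11 CPM) did not pass. CLDN4, the last of the 8 ductal markers, was at 24.9, 53.4 and 26.4 CPM in SIRT4 libraries, against 535, 1.84 and 31.1 CPM in control libraries, and did not pass, with control replicate 1 far above the others. Summed over all 8 the level was 4246 to 4419.8 CPM in SIRT4 libraries and 2019 to 2681 CPM in control libraries. Summed over 8 fibroblast markers the level was 176 to 182 CPM in SIRT4 libraries and 174 to 190 CPM in control libraries, almost all of it COL1A1, with COL1A2, DCN and FAP at 0. Summed over 6 leukocyte markers it was 36.7 to 47.1 CPM in SIRT4 libraries and 60.9 to 91.4 CPM in control libraries, with CD3E at 0. Most of it was CD68, which was lower, at 39.4 CPM in SIRT4 libraries and 73.6 CPM in control libraries. Over 6 neuron markers it was 58.1 to 62.5 CPM in SIRT4 libraries and 56.7 to 74.8 CPM in control libraries, with SYP and ELAVL3 lower and ELAVL4 at 0, and 4 endothelial markers summed to 0.563 to 1.44 CPM and 0.330 to 0.638 CPM. The 6 nuclear-retained RNAs summed to 985 to 1183 CPM in SIRT4 libraries and 1388 to 1964 CPM in control libraries. MEG3 and OIP5-AS1 were lower, and the other 4 did not pass. Of those 4, NEAT1 was at 442, 236 and 185 CPM in SIRT4 libraries, against 935, 488 and 427 CPM in control libraries. Its groups overlapped, and much of the difference between the sums came from it. The part of these shifts in the results below was not tested.

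Of the 42 splicing factor genes, 15 rose in SIRT4 libraries, 2 fell and 25 did not pass, by edgeR's quasi-likelihood F-test, Benjamini-Hochberg adjusted over all 20786 tested genes. Across all tested genes 9.38% were higher and 7.67% lower, 17.1% in all. The 42 genes are abundant, and 39 of them averaged at least 30 CPM, the group that held all 17 changed genes. Among the 6882 tested genes at that level 20.4% were higher and 12.2% lower, 32.6% in all, and among the 39 genes 38.5% and 5.13%. The median log2 fold change was 0.11 over the 42 genes, -0.02 over all tested genes and 0.05 over tested genes of at least 30 CPM. Most changes were modest: 4 of the 17 reached 1.5-fold and 1 reached 2-fold. In bulk RNA a smaller share of cells expressing a gene and less of its RNA per cell cannot be told apart.

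Replicate spread was small for most of these genes, with a median coefficient of variation of 4.20% in SIRT4 libraries and 4.93% in control libraries. It was over 20% in a group for 4 genes, PTBP1, PTBP2, SRSF4 and SRSF6, and none of these passed. SIRT4 and control libraries did not overlap for 25 of the 42 genes, 19 with SIRT4 libraries above and 6 with them below. For all tested genes the share without overlap was 37.6%, with SIRT4 libraries above in 18.6% and below in 19.0%. For those of at least 30 CPM it was 53.4%, above in 32.4% and below in 21.0%, and for the 39 splicing factor genes at that level it was 61.5%. Together the 42 genes held 0.878% ± 0.01 of all units in SIRT4 libraries and 0.800% ± 0.02 in control libraries (SD, n = 3 each). Their summed level was 8890 ± 158 CPM in SIRT4 libraries and 7911 ± 174 CPM in control libraries, a ratio of 1.12.

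**Figure D1:**
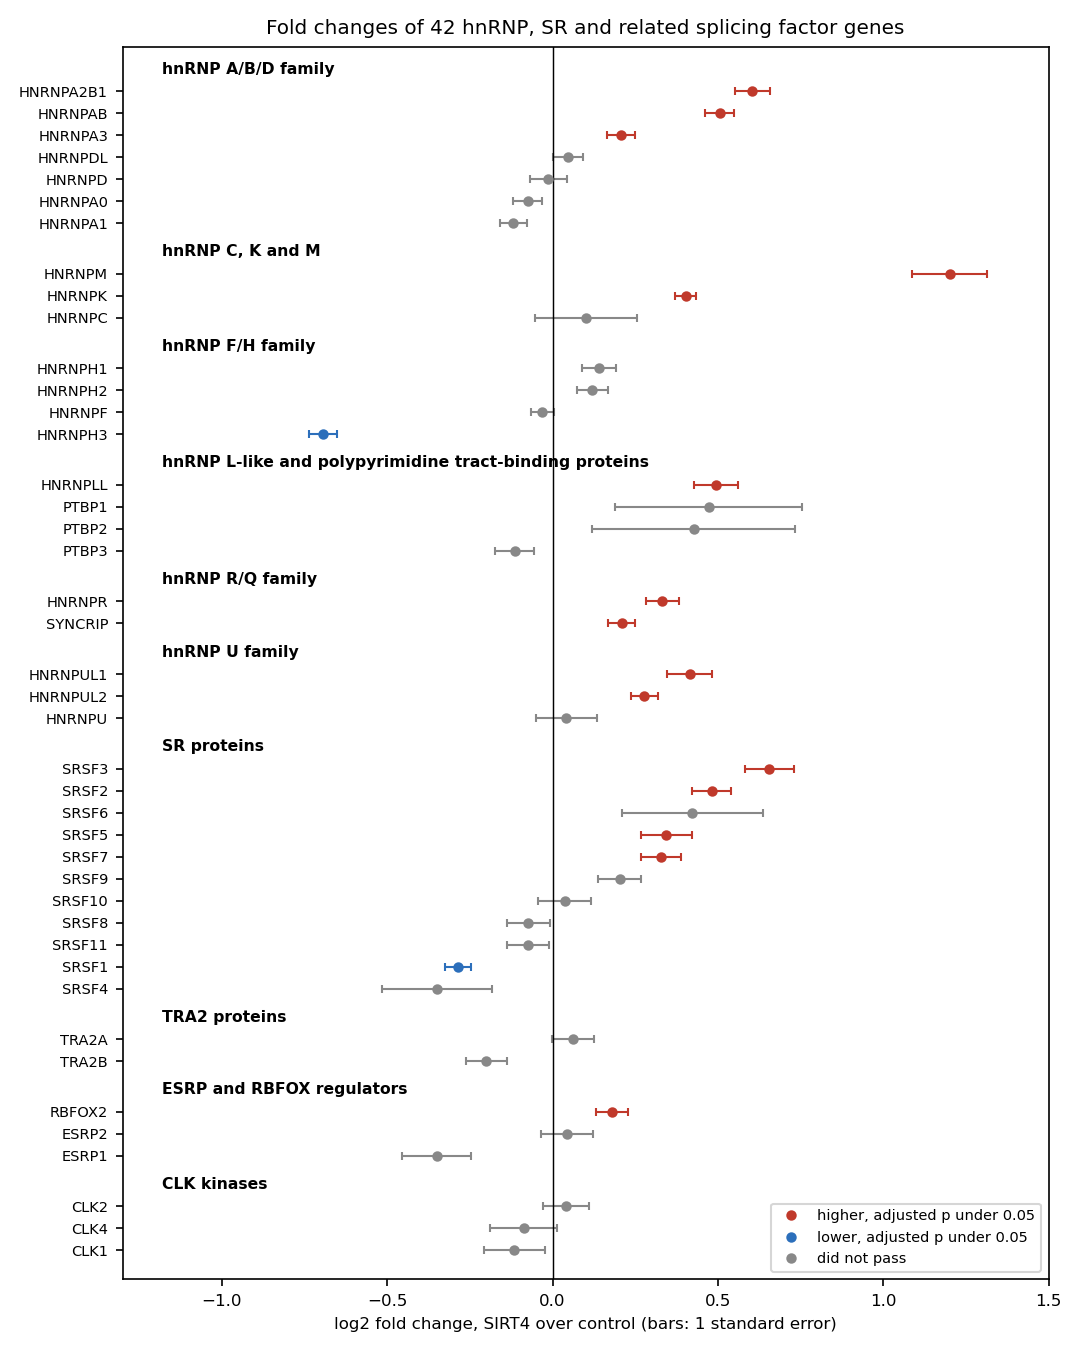
Fold changes of the 42 genes by family: the horizontal axis is the log2 fold change of SIRT4 over control libraries (3 each), points are fitted values and bars 1 standard error. HNRNPM at 1.201 and HNRNPH3 at -0.69 are the ends of the range, and 15 genes lie higher and 2 lower past an adjusted p of 0.05.

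Promoter windows of 4 genes are shown because these had the largest changes past the threshold: HNRNPM, SRSF3 and HNRNPA2B1, the genes that rose most, and HNRNPH3, the gene that fell most. Each runs 5′ to 3′ on the gene's own strand from 250 bases before to 50 bases after the RefSeq start (GRCh38.p14), at chr19:8444725-8445024 (plus strand) for HNRNPM, chr6:36594112-36594411 (plus strand) for SRSF3, chr7:26200697-26200996 (minus strand) for HNRNPA2B1 and chr10:68331443-68331742 (plus strand) for HNRNPH3. Capitals mark the letters of searched motifs, on either strand: the E-box, the CCAAT box and the TATA box.
HNRNPM: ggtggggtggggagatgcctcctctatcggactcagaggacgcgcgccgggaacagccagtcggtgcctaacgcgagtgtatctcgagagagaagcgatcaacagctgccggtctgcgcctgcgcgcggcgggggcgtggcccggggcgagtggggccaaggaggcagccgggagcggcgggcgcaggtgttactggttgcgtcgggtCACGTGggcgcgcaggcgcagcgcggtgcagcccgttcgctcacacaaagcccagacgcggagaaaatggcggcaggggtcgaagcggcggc
SRSF3: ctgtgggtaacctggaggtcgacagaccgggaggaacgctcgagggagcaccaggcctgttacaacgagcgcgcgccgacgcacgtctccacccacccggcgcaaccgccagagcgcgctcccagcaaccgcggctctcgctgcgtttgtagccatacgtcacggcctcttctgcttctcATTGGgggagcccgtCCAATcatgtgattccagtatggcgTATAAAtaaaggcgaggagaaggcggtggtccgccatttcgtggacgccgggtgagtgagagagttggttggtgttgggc
HNRNPA2B1: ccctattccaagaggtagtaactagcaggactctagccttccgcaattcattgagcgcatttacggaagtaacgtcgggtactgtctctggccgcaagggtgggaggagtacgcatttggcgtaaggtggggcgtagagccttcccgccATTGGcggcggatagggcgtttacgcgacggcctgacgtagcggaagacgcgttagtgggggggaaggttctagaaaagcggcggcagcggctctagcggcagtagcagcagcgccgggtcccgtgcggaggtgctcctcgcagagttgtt
HNRNPH3: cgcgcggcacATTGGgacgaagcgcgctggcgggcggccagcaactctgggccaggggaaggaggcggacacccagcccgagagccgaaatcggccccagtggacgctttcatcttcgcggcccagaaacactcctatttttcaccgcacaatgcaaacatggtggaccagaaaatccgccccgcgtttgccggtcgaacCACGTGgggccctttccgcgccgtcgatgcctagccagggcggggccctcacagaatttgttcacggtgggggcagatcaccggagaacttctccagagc

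The HNRNPM window holds an E-box 42 bases before the start, and the HNRNPH3 window holds an E-box 50 bases before it, so this motif occurs both in the gene that rose most and in the gene that fell most. The SRSF3 window holds a pair of CCAAT boxes in opposite orientation (the first as its reverse complement), 70 and 55 bases before the start, and a TATA box 30 bases before it. HNRNPA2B1 has a single CCAAT box 101 bases before its start, and HNRNPH3 has a CCAAT box 240 bases before its start. The HNRNPA2B1 and HNRNPH3 windows lie inside the gene spans annotated by GENCODE, as does most of the HNRNPM window. Positions therefore refer to the RefSeq start used and not to the outermost annotated start.

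RefSeq windows were used for 36 of the 42 genes. Chromosome 8, which holds ESRP1, was left out for the 42 genes but kept in the background windows. The 36 windows were rich in G and C, with a median of 65.7%, against 65% for the 12871 windows of tested genes. They held a median of 31 CpG pairs, against 25 in tested genes. With both strands searched and no motif contained in another, the E-box CACGTG was found in 10 of the 36 windows (27.8%), in 9.84% of the windows of tested genes and in 7.435% of all 27305 windows. It was in 4 of the 13 windows of genes that rose, 1 of the 2 of genes that fell and 5 of the 21 of genes that did not pass. The CCAAT box was in 15 of 36 (41.7%), against 35.96% of tested genes and 35.7% of all windows. The TATA box TATAAA was in 5 of 36 (13.9%), against 6.12% of tested genes and 11.9% of all windows. The GC box GGGGCGGGG was in 10 of 36 (27.8%), against 26.5% and 16.0%, and the ETS core CCGGAAG in 5 of 36 (13.9%), against 17.5% and 10.7%. The letters TTTGGCGC (E2F type, 0.994% of tested genes and 0.659% of all windows) were in none of the 36 windows. A match describes the letters of a window and does not show that a factor binds there.

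The hnRNP C, K and M genes held the largest rise. HNRNPM (ENSG00000099783, GRCh38 chromosome 19, 8444767 to 8489114, plus strand) encodes a GU-rich RNA binder that regulates CD44 splicing in carcinoma cells. Its level was 162, 161 and 214 CPM in SIRT4 libraries, against 74.9, 79.9 and 79.1 CPM in control libraries. Every SIRT4 library held more of it than any control library, and SIRT4 replicate 3 stood above the other SIRT4 replicates. The means were 179 ± 30.1 CPM in SIRT4 libraries and 78.0 ± 2.66 CPM in control libraries (SD, n = 3 each), a 2.30-fold difference with a 95% interval of 1.97 to 2.68 (edgeR adjusted p = 0.000747). Without SIRT4 replicate 3 the log2 fold change was 1.06, against 1.201 with it, and the adjusted p was 0.000179.

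HNRNPK, which binds C-rich RNA and single-stranded DNA, had the smallest standard error of the 42 genes. It was at 627, 615 and 616 CPM in SIRT4 libraries, against 469, 471 and 466 CPM in control libraries (log2 fold change 0.40, SE 0.03, edgeR adjusted p = 0.000187). HNRNPC, which binds uridine tracts and measures transcript length, was at 339, 470 and 490 CPM in SIRT4 libraries, against 407, 436 and 369 CPM in control libraries. SIRT4 replicate 1 was the lowest of the 6 libraries for HNRNPC and SIRT4 replicates 2 and 3 were the highest, so the groups overlapped. Its log2 fold change was 0.10 (SE 0.15, edgeR adjusted p = 0.730) over all libraries, and 0.25 (edgeR adjusted p = 0.0592) without SIRT4 replicate 1.

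In the hnRNP A/B/D family, 3 of 7 genes rose and none fell. These proteins share paired RNA recognition motifs and act largely as splicing repressors and mRNA carriers. HNRNPA2B1 (chromosome 7, 26173057 to 26201529, minus strand), which binds m6A-containing and UAG-rich RNA, was at 888, 913 and 963 CPM in SIRT4 libraries, against 575, 648 and 596 CPM in control libraries. The lowest SIRT4 library was well above the highest control library, and the means of 921.5 ± 38.0 and 606.6 ± 37.4 CPM (SD, n = 3 each) gave a log2 fold change of 0.60 (SE 0.05, edgeR adjusted p = 0.000284). HNRNPAB was at 178, 171 and 172 CPM in SIRT4 libraries, against 119, 124 and 123 CPM in control libraries, with a log2 fold change of 0.51 (SE 0.04, edgeR adjusted p = 0.000277). HNRNPA2B1 overlaps CBX3, which did not pass (log2 fold change 0.11), and NFE2L3, which fell (-0.32), and HNRNPAB overlaps PHYKPL, which did not pass (-0.13). HNRNPA3 rose less, with 492 to 502 CPM in SIRT4 libraries against 408 to 448 CPM in control libraries (log2 fold change 0.21, edgeR adjusted p = 0.0143).

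HNRNPA1, the best studied member of that family and an antagonist of SRSF1 at many exons, went the other way without passing. It was at 435, 444 and 410 CPM in SIRT4 libraries, against 472, 461 and 467 CPM in control libraries. All SIRT4 libraries lay below all control libraries, with a log2 fold change of -0.12 (SE 0.04) and an edgeR adjusted p of 0.0891. HNRNPA1 has 76 rows of pseudogenes and retrocopies in the table, HNRNPA1L2 and HNRNPA1L3 among them, which held 3.09% to 5.5% of the sum over gene and copies per library, so its reads may be split among them. HNRNPA0 (log2 fold change -0.08), HNRNPD (-0.01), also known as AUF1 for its binding to AU-rich elements, and its relative HNRNPDL (0.05) did not pass. Per exon length, HNRNPA2B1 held 28.99% ± 1.17 of the family in SIRT4 libraries and 22.5% ± 0.935 in control libraries, while HNRNPA1 held 18.8% ± 0.835 and 24.1% ± 0.791 (SD, n = 3 each).

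**Figure D2:**
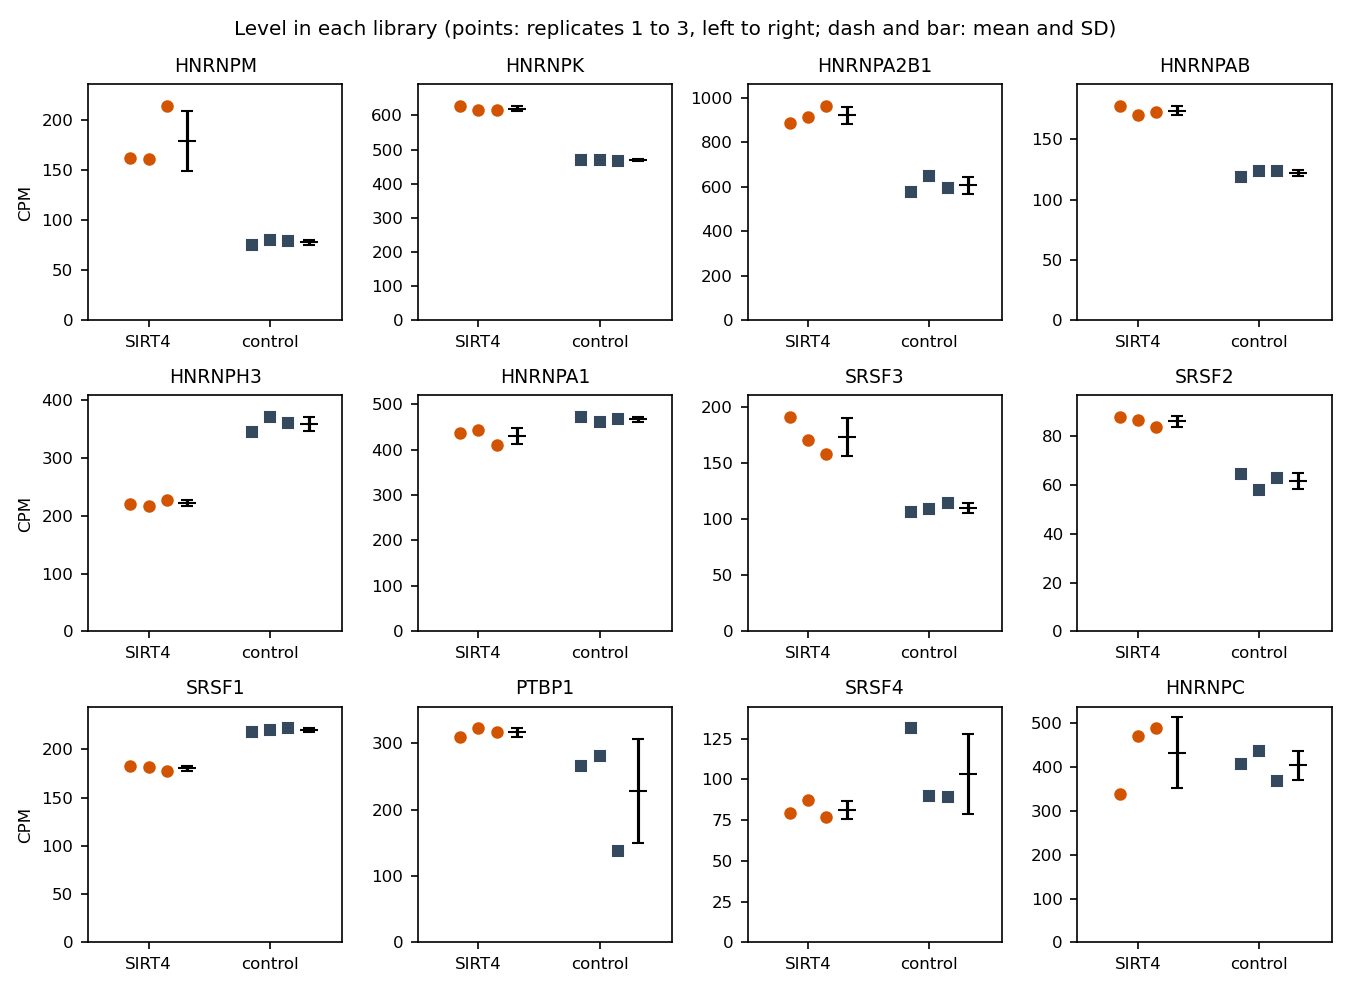
Level in each library of 12 of the genes: the vertical axes are CPM from 0, circles are SIRT4 and squares control replicates, and the dash with its bar is the mean and SD (n = 3). HNRNPM, HNRNPK, HNRNPA2B1, HNRNPAB, SRSF3, SRSF2 and PTBP1 are higher in every SIRT4 library. HNRNPH3, HNRNPA1, SRSF1 and SRSF4 are lower in every SIRT4 library. In PTBP1, SRSF4 and HNRNPC a single library stands apart, and the groups overlap for HNRNPC.

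The hnRNP F/H family binds G-rich runs beside splice sites, and the gene of its smallest protein was the 1 hnRNP gene that fell. HNRNPH3 (chromosome 10, 68331174 to 68343191, plus strand) was at 221, 218 and 227 CPM in SIRT4 libraries, against 346, 371 and 360.2 CPM in control libraries. The groups were far apart relative to their spread, with means of 222 ± 4.72 and 359 ± 12.8 CPM (SD, n = 3 each). The fold was 0.618 with a 95% interval of 0.583 to 0.655, and the edgeR adjusted p of 5.69e-05 was the smallest of the 42 genes. HNRNPF (log2 fold change -0.03), HNRNPH1 (0.14, edgeR adjusted p = 0.112) and HNRNPH2 (0.12, edgeR adjusted p = 0.127) did not pass. HNRNPH3 therefore held 25.5% ± 0.721 of the family per exon length in SIRT4 libraries and 36.3% ± 1.04 in control libraries (SD, n = 3 each).

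HNRNPH2 shares its locus with the read-through gene RPL36A-HNRNPH2, whose row held 1571, 1368 and 8109 units in SIRT4 libraries, against 417, 1335 and 1187 units in control libraries. SIRT4 replicate 3 stood far above the others in that row. Summed over both rows, HNRNPH2 had a log2 fold change of 0.38 and an edgeR adjusted p of 0.161. HNRNPH3 overlaps RUFY2 and PBLD, which had log2 fold changes of 0.12 and 0.26 and did not pass, and the sources used here do not give the strand setting of the counting.

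Among the L-like and polypyrimidine tract-binding genes, HNRNPLL, which represses exons of CD45 in lymphocytes, was the only gene to pass of 4. It was at 48.8, 49.8 and 52.3 CPM in SIRT4 libraries, against 34.5, 37.6 and 35.0 CPM in control libraries (log2 fold change 0.49, SE 0.07, edgeR adjusted p = 0.00209). PTBP1, the repressor of exons flanked by pyrimidine tracts that favours the PKM2 isoform of pyruvate kinase, was at 310, 323 and 318 CPM in SIRT4 libraries, against 266, 282 and 138 CPM in control libraries. Control replicate 3 stood far below the other 5 libraries, and the SIRT4 libraries were above all 3 controls. The log2 fold change was 0.47 (SE 0.28, edgeR adjusted p = 0.345) with all libraries, and 0.22 with an edgeR adjusted p of 0.0366 without control replicate 3. That fit was the only 1 of 16 alternatives in which PTBP1 passed. PTBP2, the neuronal paralogue, was scarce, at 11.0, 5.67 and 4.84 CPM in SIRT4 libraries against 5.75, 5.49 and 4.77 CPM in control libraries. Its log2 fold change of 0.43 (edgeR adjusted p = 0.409) became -0.02 without SIRT4 replicate 1. PTBP3 had a log2 fold change of -0.11 and did not pass.

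Both genes of the hnRNP R/Q family rose. HNRNPR was at 214, 220.2 and 227 CPM in SIRT4 libraries, against 179, 166 and 180 CPM in control libraries (log2 fold change 0.33, SE 0.05, edgeR adjusted p = 0.00342). SYNCRIP, also called hnRNP Q and known for mRNA transport and translational control, was at 297 to 305 CPM in SIRT4 libraries, against 253 to 268 CPM in control libraries (log2 fold change 0.21, edgeR adjusted p = 0.0103).

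In the hnRNP U family, whose founder binds chromatin-associated RNA and helps organise the nucleus, the U-like genes rose and HNRNPU itself did not pass. HNRNPUL1 was at 259, 285 and 255 CPM in SIRT4 libraries, against 183, 212 and 204 CPM in control libraries (log2 fold change 0.41, SE 0.07, edgeR adjusted p = 0.00504). HNRNPUL2 was at 271, 286 and 283 CPM in SIRT4 libraries, against 229, 237 and 228 CPM in control libraries (log2 fold change 0.28, SE 0.04, edgeR adjusted p = 0.00329). The read-through row HNRNPUL2-BSCL2 was uneven, with 521, 417 and 73 units in SIRT4 libraries, against 0, 48 and 930 units in control libraries. It held at most 6.58% of the sum of both rows in a library, and HNRNPUL2 still passed with that row summed in. HNRNPU was at 504 to 563 CPM in SIRT4 libraries, against 444 to 558 CPM in control libraries, with a log2 fold change of 0.04 (SE 0.09, edgeR adjusted p = 0.820). TGFB1, which overlaps HNRNPUL1, had a log2 fold change of 0.00.

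Over the 23 hnRNP and polypyrimidine tract-binding genes, 10 rose and 1 fell, with a median log2 fold change of 0.21. That is 43.5% higher and 4.35% lower, against 9.38% and 7.67% of all tested genes. Among tested genes of at least 30 CPM, a level that PTBP2 did not reach, the shares were 20.4% and 12.2%. Summed CPM was higher in SIRT4 libraries for the A/B/D family (ratio 1.18), for C, K and M (1.30), for the L-like and polypyrimidine tract-binding genes (1.21), for R/Q (1.197) and for U (1.14). The F/H family sum was lower, at 1053 ± 7.03 CPM in SIRT4 libraries and 1166 ± 6.36 CPM in control libraries (ratio 0.903). The L-like and polypyrimidine tract-binding sum was 528 ± 5.22 CPM in SIRT4 libraries and 435 ± 76.3 CPM in control libraries (SD, n = 3 each), and its ratio was 1.103 without control replicate 3, the library with low PTBP1 (a check chosen after seeing the data). These sums are descriptions with no test.

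**Figure D3:**
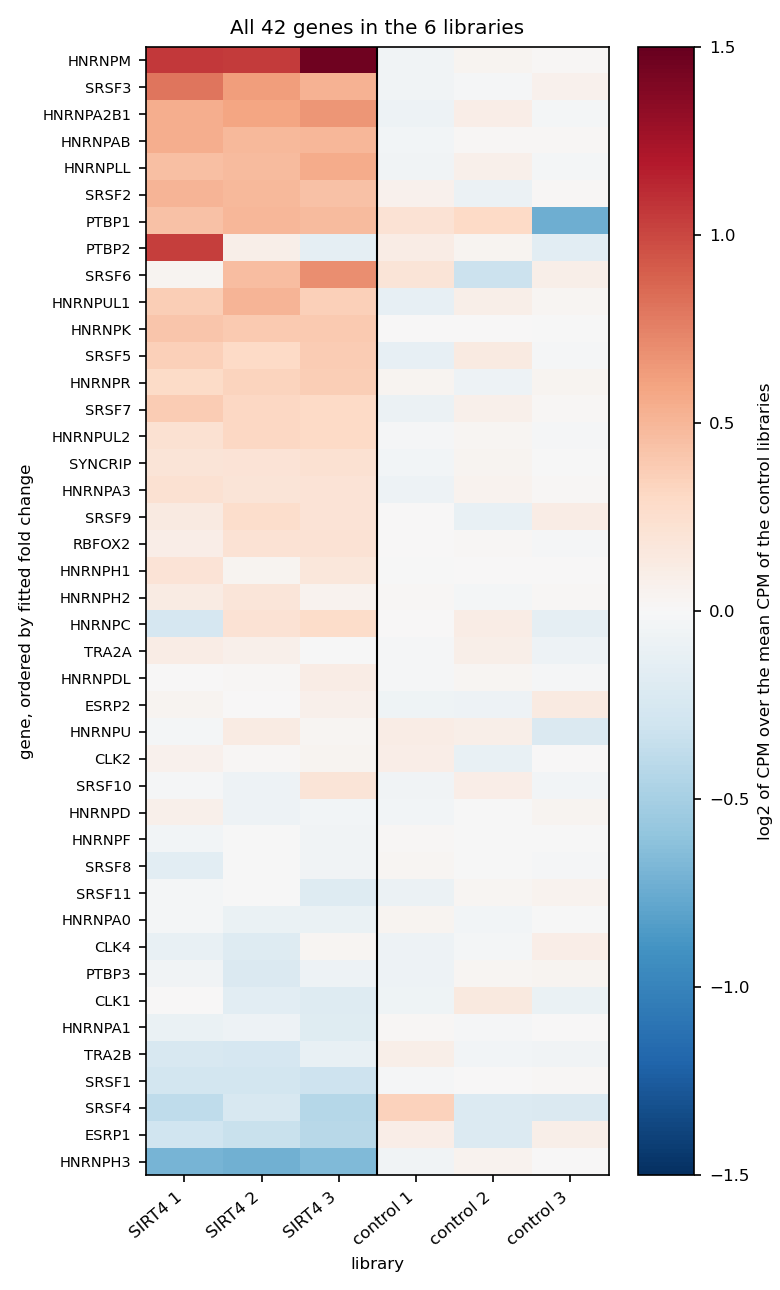
All 42 genes in each library: colour is the log2 of CPM over the mean CPM of the control libraries, rows are ordered by fitted fold change, with SIRT4 replicates 1 to 3 left of the line and control replicates 1 to 3 right of it. The upper rows (HNRNPM, SRSF3, HNRNPA2B1) are red and the lowest row (HNRNPH3) blue in all 3 SIRT4 libraries, while PTBP1, PTBP2, SRSF6, HNRNPC and SRSF4 change within a group.

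The SR proteins moved in both directions: of 11 genes, 4 rose, 1 fell and 6 did not pass, with a median log2 fold change of 0.20. That is 36.4% higher and 9.09% lower, against 9.38% and 7.67% of all tested genes. Among tested genes of at least 30 CPM the shares were 20.4% and 12.2%. SRSF3 (chromosome 6, 36594353 to 36605600, plus strand), the smallest SR protein, which also takes part in mRNA export, rose most. It was at 191, 170 and 158 CPM in SIRT4 libraries, against 106, 109 and 115 CPM in control libraries. The groups did not overlap, and the fold was 1.57 with a 95% interval of 1.42 to 1.74 (edgeR adjusted p = 0.000937). SRSF2, which activates exons through both G-rich and C-rich enhancers, was at 87.8, 86.7 and 83.6 CPM in SIRT4 libraries, against 64.4, 57.9 and 62.6 CPM in control libraries (log2 fold change 0.48, SE 0.06, edgeR adjusted p = 0.00147). SRSF7, the close relative of SRSF3 with a zinc knuckle, was at 104, 99.4 and 98.4 CPM in SIRT4 libraries, against 75.2, 84.3 and 81.0 CPM in control libraries (log2 fold change 0.33, SE 0.06, edgeR adjusted p = 0.00828).

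SRSF2 overlaps MFSD11, which stood at 39.1 ± 6.98 CPM in SIRT4 libraries and 28.1 ± 5.08 CPM in control libraries (SD, n = 3 each). MFSD11 had a log2 fold change of 0.48, the same to 2 decimals as SRSF2, with an edgeR adjusted p of 0.111. Without the strand setting, reads of these overlapping genes cannot be told apart. SRSF8, which arose as a copy of SRSF2, had a log2 fold change of -0.07 and did not pass.

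SRSF5, an SR protein linked to fibronectin splicing, passed by a narrow margin. It was at 67.2, 64.2 and 67.9 CPM in SIRT4 libraries, against 48.0, 57.4 and 51.6 CPM in control libraries (log2 fold change 0.34, SE 0.08, edgeR adjusted p = 0.0181). Its edgeR adjusted p was 0.0505 without SIRT4 replicate 1, 0.0557 without SIRT4 replicate 3, 0.0503 without control replicate 1 and 0.0599 without control replicate 3, so the call ended in each of these.

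SRSF1 (chromosome 17, 58003360 to 58007346, minus strand), the founding SR protein and an oncoprotein in several epithelia, was the 1 SR gene that fell. It was at 183, 181 and 178 CPM in SIRT4 libraries, against 218, 220.5 and 222 CPM in control libraries. The groups were narrow and separate, with a fold of 0.820 and a 95% interval of 0.778 to 0.865 (edgeR adjusted p = 0.00216). Per exon length SRSF1 held 11.4% ± 0.298 of the SR gene total in SIRT4 libraries and 15.2% ± 0.583 in control libraries (SD, n = 3 each), while SRSF3 held 7.95% ± 0.872 and 5.52% ± 0.260.

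Of the SR genes that did not pass, SRSF4 and SRSF6 had single libraries or wide spreads behind their values. SRSF4 was at 79.5, 87.3 and 76.8 CPM in SIRT4 libraries, against 132, 89.6 and 89.1 CPM in control libraries. All SIRT4 libraries lay below all control libraries, but control replicate 1 stood apart. The log2 fold change of -0.35 (edgeR adjusted p = 0.221) was -0.14 without that library. SRSF6 was at 117, 157 and 184 CPM in SIRT4 libraries, against 130, 90.9 and 121 CPM in control libraries, with overlapping groups and a log2 fold change of 0.42 (SE 0.21, edgeR adjusted p = 0.263). SRSF9 was above control in every SIRT4 library, at 197, 215 and 205 CPM against 179, 165 and 193 CPM, but had an edgeR adjusted p of 0.0690. It passed in 1 of 16 alternatives, the fit without control replicate 3 (edgeR adjusted p = 0.0432). With another library left out, its edgeR adjusted p reached 0.207. SRSF10, which becomes a general splicing repressor when dephosphorylated, and SRSF11 had log2 fold changes of 0.04 and -0.07.

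The TRA2 proteins bind purine-rich enhancers as partners of SR proteins, and neither gene passed. TRA2B was at 119, 118 and 130 CPM in SIRT4 libraries, against 150, 136 and 135 CPM in control libraries. All SIRT4 libraries were below all control libraries, at a log2 fold change of -0.20 (SE 0.06) and an edgeR adjusted p of 0.0606. TRA2A had a log2 fold change of 0.06 (edgeR adjusted p = 0.582).

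Of the ESRP and RBFOX regulators, RBFOX2 rose narrowly, and ESRP1 and ESRP2 did not pass. RBFOX2, which binds GCAUG, was at 153, 165 and 166 CPM in SIRT4 libraries, against 143, 144 and 141 CPM in control libraries (log2 fold change 0.18, SE 0.05, edgeR adjusted p = 0.0390). The RBFOX2 call ended when any of 5 libraries was left out, with an edgeR adjusted p of 0.118 for SIRT4 replicate 2, 0.103 for SIRT4 replicate 3, and 0.0828, 0.0663 and 0.108 for control replicates 1, 2 and 3. It was 0.0283 when SIRT4 replicate 1 was left out.

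ESRP1 was at 19.5, 18.9 and 17.9 CPM in SIRT4 libraries, against 25.6, 20.8 and 25.4 CPM in control libraries. The groups did not overlap, and the log2 fold change of -0.35 (SE 0.10) had an edgeR adjusted p of 0.0550. That value lay on the other side of the threshold in 5 of 16 alternatives, such as 0.0258 by the DESeq2 Wald test. In the other 11 ESRP1 did not pass, and with 1 library left out its edgeR adjusted p reached 0.170. ESRP2 was at 36.4, 35.6 and 37.3 CPM in SIRT4 libraries, against 33.8, 33.6 and 38.7 CPM in control libraries, with a log2 fold change of 0.04 (95% interval of the fold 0.926 to 1.15).

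The kinases CLK1, CLK2 and CLK4 had log2 fold changes of -0.12, 0.04 and -0.09, none of which passed. The 95% intervals of their folds ran from 0.814 to 1.05, from 0.935 to 1.13 and from 0.821 to 1.08. CLK3, another kinase of that family outside the 42 genes, fell to 54.8 ± 1.43 CPM in SIRT4 libraries, against 70.1 ± 3.75 CPM in control libraries (SD, n = 3 each, log2 fold change -0.35, edgeR adjusted p = 0.00654).

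Levels of different genes were compared per kilobase of annotated exon. On that scale HNRNPK led in both groups, at 203 CPM per kilobase in SIRT4 libraries and 154 in control libraries. HNRNPH3 stood sixth in SIRT4 libraries, at 94.9 CPM per kilobase, and next to HNRNPK in control libraries, at 153.5. HNRNPA2B1 had 155 CPM per kilobase in SIRT4 libraries and 102 in control libraries, and HNRNPM had 66.6 and 28.95, which moved HNRNPM to rank 12 in SIRT4 libraries against rank 25 in control libraries. The lowest levels were those of HNRNPLL (9.89 and 7.02), ESRP2 (9.50 and 9.21), ESRP1 (4.86 and 6.19), CLK4 (4.16 and 4.42) and PTBP2 (0.596 and 0.444 CPM per kilobase, in SIRT4 and control libraries).

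**Figure D4:**
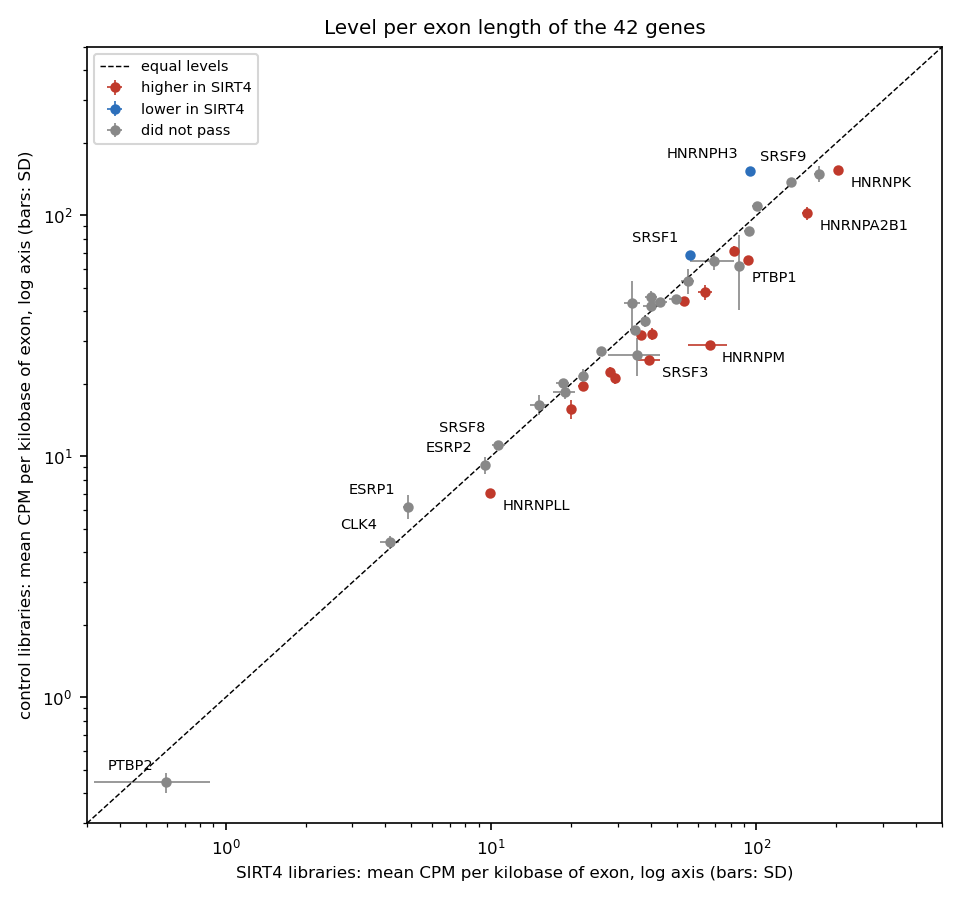
Level per exon length of the 42 genes: both axes are mean CPM per kilobase of exon on a log scale, SIRT4 libraries on the horizontal and control libraries on the vertical axis, bars are SD (n = 3) and the dashed line marks equal levels. HNRNPM (66.6 in SIRT4 and 28.95 in control libraries) and HNRNPH3 (94.9 and 153.5) lie farthest from the line among genes that passed.

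Many of these genes limit their own protein by splicing in exons that bring a premature stop. In GENCODE release 29, 30 of the 42 genes (71.4%) had a transcript annotated for nonsense-mediated decay and 29 (69.0%) had a retained-intron transcript, against 41.3% and 54.6% of 14660 tested protein-coding genes. That comparison was matched neither for level nor for the number of annotated transcripts. Annotation of HNRNPU lists 9 decay transcripts, SRSF7 lists 6, SRSF1 lists 3, and HNRNPH3 lists none. The median log2 fold change was 0.08 for the 30 genes with a decay transcript and 0.15 for the other 12, and it was 0.18 for the 29 genes with a retained-intron transcript and 0.04 for the other 13. Counts per gene sum productive and unproductive transcripts, so the levels given here do not separate them.

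The wider splicing machinery was described by 136 further genes, of which 133 were tested, 41 rose and 7 fell, with a median log2 fold change of 0.09. That is 30.8% higher and 5.26% lower, against 20.4% and 12.2% of tested genes of at least 30 CPM. The 133 genes were not limited to that level, and LSM6 for example averaged 6.16 CPM. Over all tested genes the shares were 9.38% and 7.67%. By list the share higher ran from 6.67% (exon junction complex and nonsense-mediated decay) to 44.4% (near relatives). It was 28% for the U1, U2 and Sm core and 16.7% for the SR-related list. HNRNPCL1, RBFOX1 and CELF2 were too low to be tested. Of 9 tested near relatives, HNRNPL (log2 fold change 0.33, edgeR adjusted p = 0.00250), RBMX (0.33), PCBP1 (0.19) and RALY (0.24) rose and CLK3 fell. Among 30 other RNA-binding regulators 11 rose and none fell, among them the cold-inducible RBM3, which was at 251 ± 6.92 CPM in SIRT4 libraries and 153 ± 2.74 CPM in control libraries (SD, n = 3 each), and SFPQ (log2 fold change 0.71). Of 36 genes of the tri-snRNP, PRPF19 complex and spliceosomal helicases, 15 rose, among them SNRNP200 (0.39), DDX23 (0.52) and PPIH (0.66), and 3 fell, LSM6, LSM8 and SYF2. Of 25 U1, U2 and Sm core genes 7 rose, among them SNRPD3 (0.53), U2AF2 (0.24) and SF3B3 (0.25), and 2 fell, SNRPA1 and SF3B6. Of 18 SR-related proteins, SR kinases and import factors 3 rose, BCLAF1 (0.35), PRPF4B (0.27) and the SR kinase SRPK1 (0.21). Of 15 genes of the exon junction complex and nonsense-mediated decay, SMG5 rose (0.22) and MAGOH fell (-0.57).

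**Figure D5:**
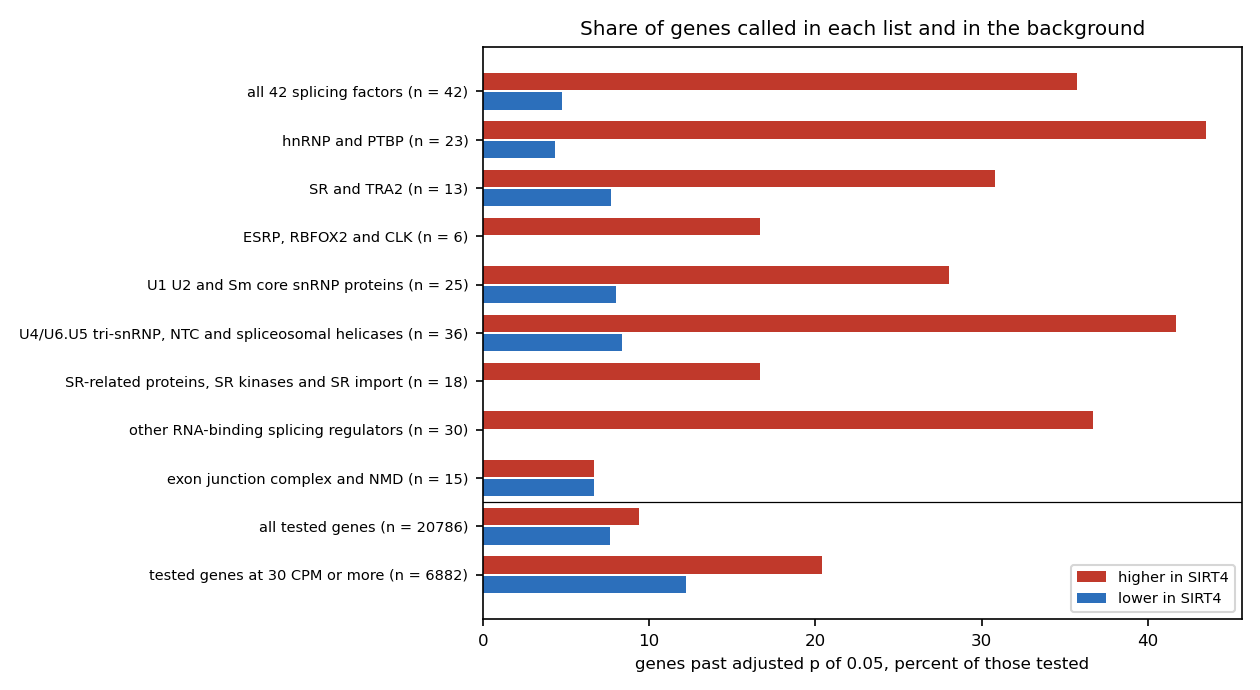
Share of genes past an adjusted p of 0.05 in each list: the horizontal axis is the percent of tested genes higher (upper bar) or lower (lower bar) in SIRT4 than in control libraries, with the number tested in brackets. The 42 genes show 35.7% higher and 4.76% lower, tested genes of at least 30 CPM 20.4% and 12.2%, and all tested genes 9.38% and 7.67%. The gene lists were not limited to 30 CPM.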

How the data were processed

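RNA-seq of 6 CAPAN-2 libraries, 3 SIRT4 and 3 control, was analysed from a deposited gene table. Per the labels' protocols, TRIzol gave total RNA and an NEBNext Ultra kit the libraries. The submitters' processing notes name hg38, STAR, Subread, featureCounts and DESeq2, with neither version nor role. The deposited values are whole numbers, treated as estimated counts, so rounding changed nothing. They heap at 4 and 8 (1278 genes at 4 and 792 at 3 in control replicate 1), so 1 unit may be less than 1 fragment. The sources used here do not give how the authors derived the estimated counts or their strand setting.

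Symbols came from an identifier table (60357 of 67140 rows) and GENCODE release 29 (296 more), which gave coordinates and exon lengths on GRCh38, the assembly of hg38. Where a listed gene, MATR3, had more than 1 row, the row with the larger total was used. After filterByExpr, 20786 genes were fitted on all 6 libraries without covariates by edgeR 4.0.16 in R 4.3.3, with TMM scaling and robust glmQLFit followed by glmQLFTest, the quasi-likelihood F-test. Benjamini-Hochberg adjustment ran over all of them, with a threshold of 0.05. A standard error is the absolute log2 fold change over the square root of F. All 95% intervals use it with a normal quantile, so with 3 libraries a group they are narrower than the F-test implies. For SRSF6 the interval of the fold, 1.003 to 1.79, left out 1 although the unadjusted edgeR F-test p was 0.101. CPM divides the deposited estimated counts by TMM-scaled totals.

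All 42 genes are reported, passed or not, with up to 3 genes of smallest adjusted p per further list, and any 5 or fewer counted. The result for 1 gene that this rule would name is not reported here. The genes and lists were chosen with earlier results of these data known. Alternatives were DESeq2 size factors, library totals only, no filter, a stricter filter (mean of at least 1 CPM, and 10 counts in at least 3 libraries), DESeq2 1.42.0, limma-voom (limma 3.58.1), glmTreat against a 1.2-fold change, division by 4, the replicate number as a block, pseudogene and read-through rows summed in, and each library left out.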

Additional observations from a re-analysis of the deposited data

How the results depend on the processing

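Across 16 alternatives and 42 genes, 633 of 672 values kept their direction and their side of the threshold, 21 lost the threshold, 10 gained it and 8 reversed. Of the 17 changed genes, 15 passed in every alternative except glmTreat, the other two being SRSF5 and RBFOX2. Against a fold change of 1.2, glmTreat called 7 of the 42 genes higher and 1 lower, and 605 higher and 521 lower of all genes, since it asks for a larger change. The count of lower genes among the 42 was 4 with library totals only (which also lost RBFOX2), with the stricter filter and with values divided by 4, where TRA2B (adjusted p 0.0303, 0.0479 and 0.0419) and ESRP1 (0.0432, 0.0463 and 0.0467) joined the 2, and the cause was not tested. With each library left out, 13 to 15 of the 42 were higher and 2 to 3 lower, and over all genes 1312 to 1570 were higher and 978 to 1204 lower, in fits with fewer samples. Against 1595 lower genes with all libraries, leaving out control replicate 3 gave 978, SIRT4 replicate 2 gave 1021 and SIRT4 replicate 3 gave 1058.

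The reversed values, all of genes that did not pass, came from leaving out libraries. Over the 6 such fits the log2 fold change ran from -0.057 to 0.022 for HNRNPD (above 0 without SIRT4 replicate 2, SIRT4 replicate 3 or control replicate 3), from -0.018 to 0.654 for PTBP2 (below 0 without SIRT4 replicate 1), from -0.052 to 0.102 for HNRNPU (below 0 without SIRT4 replicate 2 or control replicate 3), from -0.035 to 0.0893 for SRSF10 (below 0 without SIRT4 replicate 3) and from -0.012 to 0.0923 for CLK2 (below 0 without control replicate 2).

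Deviations of same-numbered libraries were almost uncorrelated across genes (r 0.01, 0.02 and -0.01). On principal component 2 of the libraries, however, replicate 1 was high in both groups (17.9 in SIRT4 and 16.2 in control). Replicate 2 was low in both (-10.7 and -20.5), and replicate 3 differed in sign (-6.298 and 3.32). With 3 libraries a group these values cannot settle whether equal numbers mark a pairing, which is therefore not known. With the replicate block, 13 of the 42 genes were higher and 2 lower, and 1450 and 1140 of all genes, SRSF5 (adjusted p 0.0502) and RBFOX2 (0.0835) no longer passing. With 3 libraries a group, small differences such as those of ESRP2 or CLK2 were not detectable beyond their intervals.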
